A study of Hordeum vulgare with 12 samples.

Results

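The miRNAs of barley (Hordeum vulgare) line Rolap shoots were compared between plants short of phosphate (Pi) and plants supplied with it. Every sequence that matched miRBase perfectly in the shoot libraries was taken, 4430 distinct sequences of the 6279 found over roots and shoots together, and 1963 of them were also read in root. Both groups grew in the same soil, which held 8 mg P per kg. The control (Pi-sufficient) soil received a further 60 mg P per kg as potassium phosphate. Potassium was thus added together with the P, and their effects cannot be told apart here. No further agent or genetic difference separated the groups. Shoots were harvested at day 23, 1 replicate was a pot of 3 plants, and each group held 3 replicates, numbered 4, 5 and 6 for low Pi and 16, 17 and 18 for control. The p-values below therefore measure the spread between pots. The tables hold no messenger RNAs, so the organ label was not checked against marker genes.

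A plant miRNA is cut by DICER-LIKE1 from a folded precursor as a duplex of a strand from the 5p side and a strand from the 3p side of the fold. As a rule 1 strand, the guide, is kept by an ARGONAUTE protein and pairs with messenger RNAs, which are then cleaved or not translated, and the other strand is degraded. Under Pi deficiency the best known families are miR399, which in Arabidopsis acts on PHO2, a ubiquitin-conjugating enzyme that limits Pi transporters and Pi export to the shoot, and miR827, which in rice acts on the SPX-MFS genes, membrane proteins that carry Pi at the vacuole.

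The sequences of these families that the results turn on are shown first, each as deposited, 5′ to 3′ with T for U and with bases 2 to 8 (the seed, the stretch that pairs most strictly with a target) in capitals. Arms follow the deposited match type, except for miR399 and miR827, where they follow the bases. In miR399, 3p strand 1 below is named after a Phaseolus vulgaris entry that the match type puts on the 5′ side.
miR399 3p strand 1: tGCCAAAGgagagttgccctg
miR399 3p strand 2: tGCCAAAGgagaattgccctg
miR399 3p strand 3: tGCCAAAGgagatttgccccg
miR399 3p strand 4: tGCCAAAGgagatttgcccag
miR399 5p strand 1: gTGCAGTTctcctctggcatg
miR399 5p strand 2: gGGCGCTTctcctttggcacg
miR399 5p strand 3: cAGGGCGCttctcctttggca
miR827 3p, 21 nt: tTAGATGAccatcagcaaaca
miR827 3p, 20 nt: tTAGATGAccatcagcaaac
miR827 5p, 22 nt: tTTTGTTGgttgtcatctaacc
The 4 miR399 guides share the seed GCCAAAG. Counted from the 5′ end of strand 1, strand 2 differs from it by G13A, strand 3 by G13T and T20C, and strand 4 by G13T and T20A. The 5p strands are largely complementary to the guides. Laid against strand 2 of the 5p side, strand 2 of the 3p side faces it over 19 positions with an overhang of 2 bases. Of these positions 17 are Watson-Crick pairs, 1 is a G-U pair and 1 is unpaired. The paper places these strands on different chromosomes, so they are not taken as 1 duplex. Both miR827 strands face each other over 20 positions with the same overhang, of which 16 are Watson-Crick and 2 are G-U pairs.

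The 6 libraries held between 10565625 and 14644436 kept reads, of which 5.01% to 6.39% matched miRBase, 4224750 reads in all. A level is given below in reads per 1000000 kept reads of its library (RPM), and 3 reads, taken as the limit of detection, corresponded to 0.205 to 0.284 RPM. Reads were unevenly spread: 29 sequences held 90.2% of them, and 1627 sequences were read once. The families miR168 (29.6% of reads), which acts on AGO1, and miR166 (29.4%), which acts on HD-ZIP III genes, led the table, and 12 of 181 families held 96.1% of the reads. Low-Pi replicate 6 stood apart: its counts differed from those of the other low-Pi libraries by a chi-square per degree of freedom of 89.7 and 107, against 11.5 to 18.2 for every other pair within a group. It held 5646 RPM of miR159 and 22581 RPM of miR168, while low-Pi replicates 4 and 5 held 2583 and 2189 RPM of miR159 and 13966 and 14193 RPM of miR168. Where leaving it out changed a shoot call on a sequence, seed, arm or family named below, the value without it is given.

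Of 484 sequences with enough reads to be tested, 51 (10.5%) passed an adjusted p of 0.05 in edgeR's quasi-likelihood test, of which 45 (9.3% of those tested) were higher and 6 (1.24%) lower under low Pi. The split was 46 and 10 with TMM factors, 49 and 11 with DESeq2, 50 and 12 with edgeR's exact test and 52 and 4 with miRBase totals as library size. The higher ones belonged to 10 families: miR399 gave 13, miR827 gave 10, miR169 gave 7, miR6300 gave 5, miR156 and miR396 gave 3 each, and miR5051, miR530, miR9773 and miR9779 gave 1 each. The lower ones were 2 of miR166 and 1 each of miR156, miR159, miR167 and miR5083. Leaving out each of the 6 libraries in turn, 25 of the 51 calls held in every fit, 21 of them in miR399 and miR827 and 4 among the 28 others. The count fell to 33 without low-Pi replicate 5 and to 29 without control replicate 16. Without low-Pi replicate 6, 74 sequences were called, 55 higher and 19 lower, and they included 46 of the 51. The calls lost in that fit were 1 each of miR169 (edgeR adjusted p = 0.0636), miR396 (0.0706), miR5051 (0.0613), miR6300 (0.0551) and miR9773 (0.07996). In bulk shoots, fewer cells of a type and less RNA per cell cannot be told apart.

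**Figure D1:**
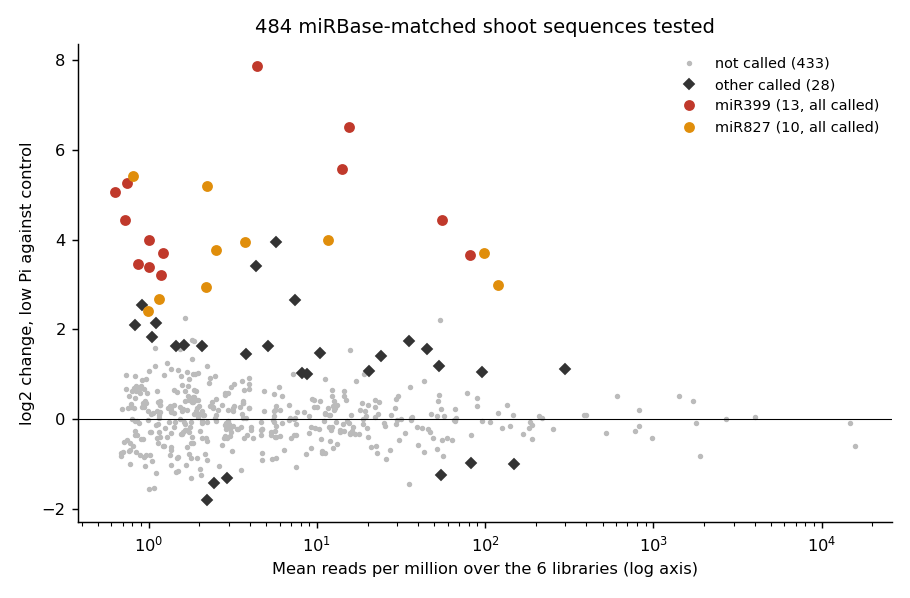
Each point is 1 of the 484 tested shoot sequences, with its mean level in RPM on the x axis (log axis) and its log2 change (low Pi against control) on the y axis; colours mark miR399 and miR827, diamonds the 28 other called sequences. The 13 miR399 sequences lie between 3.22 and 7.87 and the 10 miR827 sequences between 2.42 and 5.42, where 7.87 is the fitted change of a strand with 1 control read, while most others lie around 0.

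Of the 65 families tested, miR399 rose the most. Summed over its 117 sequences it stood at 284, 379 and 394 RPM in low-Pi replicates 4, 5 and 6 and at 19.6, 25.6 and 12.7 RPM in control replicates 16, 17 and 18 (353 ± 59.5 against 19.3 ± 6.44 RPM, SD, n = 3 each). The groups did not overlap, and the lowest low-Pi pot was above the highest control pot by more than the spread within either group. The log2 change was 4.19 ± 0.33 (SE; edgeR adjusted p = 3.42e-05) and stayed between 3.96 and 4.45 when any 1 library was left out. All 13 miR399 sequences with enough reads for the test were higher, with a median log2 change of 4.43 against 0.07 over all 484. The remaining sequences of the family had too few reads, and a sequence can pass that filter through the low-Pi libraries alone, so the count is a description. Forms of the same strand among the 13 overlap one another and share precursors, and 12 of the 13 calls held whichever library was left out.

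The guides made up most of the family. Strand 1 was read at 124, 155 and 174 RPM under low Pi and at 13.3, 14.9 and 7.80 RPM in control (log2 change 3.65 ± 0.31, edgeR adjusted p = 5.37e-06). Strand 2 was read at 80.9, 114 and 121 RPM against 4.62, 6.69 and 3.29 RPM (4.43 ± 0.34, edgeR adjusted p = 3.83e-06). In each library strand 1 was the more abundant of the pair. Strand 3 was rare, at 2.39, 1.64 and 2.74 RPM against 0.0745, 0.408 and 0 RPM (3.70 ± 0.68, edgeR adjusted p = 0.00356). Strand 4, shown after its values were seen, was read 47 times in the low-Pi libraries and once in control, a ratio of read rates of 45.6 with an exact 95% interval of 7.80 to 1841 that covers counting error only. All 4 guides were thus higher in every low-Pi pot than in any control pot.

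The strands of the 5p side, which are largely complementary to the guides, had the larger log2 changes. The 5p strand 1, which the authors' table matches only as precursor, stood at 26.6, 39.1 and 26.4 RPM under low Pi and at 0.149, 0.735 and 0.0940 RPM in control (log2 change 6.50 ± 0.52, edgeR adjusted p = 3.83e-06). The 5p strand 2 stood at 19.2, 27.4 and 36.8 RPM against 0.596, 0.816 and 0.282 RPM (5.57 ± 0.42, edgeR adjusted p = 3.83e-06). In control pots both were under 1 RPM, so their folds rest on few control reads. The 5p strand 3 was read 328 times under low Pi and once in control, a ratio of 319 with an exact 95% interval of 56.8 to 12621. Over all reads of the family, the 5p side took 21.1%, 22.6% and 19.7% under low Pi and 4.56%, 6.71% and 3.70% in control (21.1% ± 1.43 against 4.99% ± 1.55, SD, n = 3). These shares did not overlap, and the log2 ratio of 5p to 3p reads differed by 2.39 between groups, with an exact two-sided permutation p of 0.1, the smallest that 3 against 3 libraries allow. The share of strand 1 was lower without overlap, at 43.5%, 41.0% and 44.1% of the family under low Pi against 67.7%, 58.5% and 61.5% in control (exact permutation p = 0.1).

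**Figure D2:**
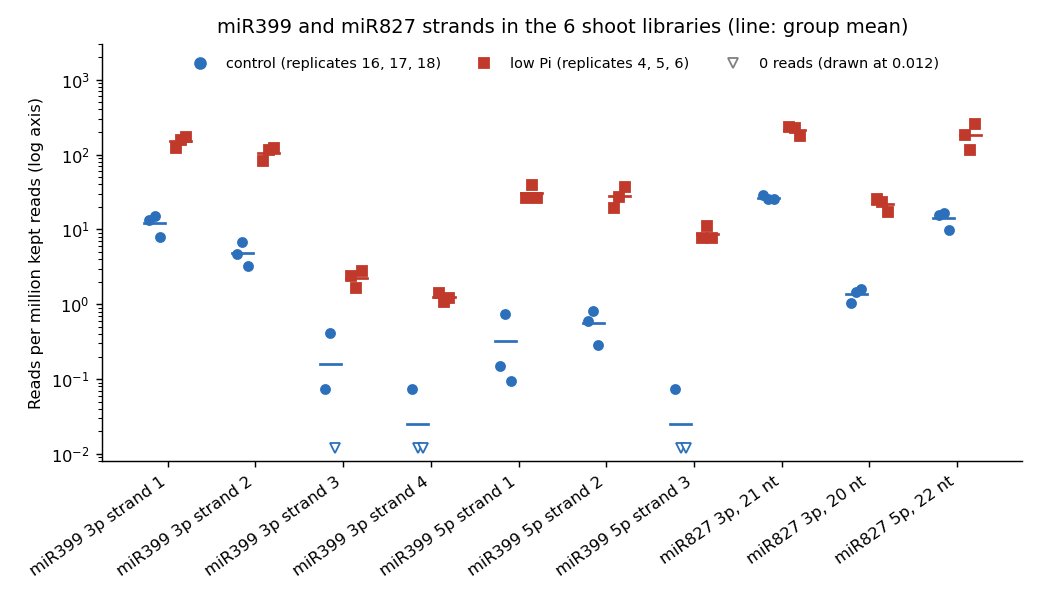
Level in RPM (log axis) of each printed miR399 and miR827 strand in each of the 6 shoot libraries, with squares for low Pi, circles for control, lines for group means and open triangles for 0 reads. For all 10 strands the 3 low-Pi libraries lie above the 3 control libraries, and the 5p strands of miR399 start from control levels under 1 RPM.

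miR827 rose on both arms. The family stood at 465, 386 and 484 RPM in the low-Pi pots and at 47.0, 47.1 and 40.2 RPM in control (445 ± 51.9 against 44.8 ± 3.93 RPM, SD, n = 3), with a log2 change of 3.31 ± 0.21 (edgeR adjusted p = 1.57e-05). Its most-read guide, the 21-nt 3p strand, was read at 233, 223 and 177 RPM against 28.5, 25.6 and 25.8 RPM (2.99 ± 0.24, edgeR adjusted p = 3.83e-06). The form that lacks the last base of that guide, 20 nt long, stood at 25.3, 23.3 and 17.1 RPM against 1.04, 1.47 and 1.6 RPM (4.0 ± 0.32, edgeR adjusted p = 3.83e-06). The groups did not overlap for either form.

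On the 5p side of miR827, the 22-nt strand stood at 182, 115 and 253 RPM under low Pi against 15.7, 16.7 and 9.96 RPM in control (3.70 ± 0.35, edgeR adjusted p = 1.44e-05). It exceeded the 21-nt 3p strand in low-Pi replicate 6 and in no other library. Forms of this strand that start 1 or 2 bases later (tTTGTTGGttgtcatctaacc and tTGTTGGTtgtcatctaacc) were rarer, with mean low-Pi levels under 10 RPM, and their log2 changes were 3.96 and 3.77. The 5p share of the family was 42.4%, 33.3% and 58.4% under low Pi and 35.4%, 39.9% and 26.6% in control, which overlapped (exact permutation p = 0.3). Of the 30 miR827 sequences 10 were tested, under the same filter, and all 10 were higher, with a median log2 change of 3.73, and 9 of those calls held whichever library was left out.

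Summed by family, 65 families could be tested and 3 (4.62%) were called, all higher: miR399, miR827 and miR6300. No family was called lower by edgeR, 4 were lower at an unadjusted p under 0.05, and DESeq2 called 3 lower (miR165, miR166 and miR167) and 8 higher. With TMM factors the split was 2 higher and 2 lower, and without low-Pi replicate 6 it was 5 and 1. miR6300, an entry listed here among those taken to resemble structural RNA, stood at 211, 193 and 167 RPM under low Pi and at 77.2, 77.1 and 114 RPM in control (log2 change 1.09 ± 0.24, edgeR adjusted p = 0.0385). The groups did not overlap, but the call was lost without low-Pi replicate 4 (adjusted p = 0.187), without low-Pi replicate 5 (0.0747), without control replicate 16 (0.151) and without control replicate 17 (0.196). Its most-read sequence, gTCGTTGTagtatagtgg, is 18 nt long and was read at 152, 134 and 102 RPM against 60.1, 53.3 and 75.0 RPM (1.04 ± 0.25, edgeR adjusted p = 0.0206), a call lost without low-Pi replicates 4 (0.0931) or 5 (0.0623) or control replicates 16 (0.112) or 17 (0.123). It begins with G and was chosen after its values were seen, and no sequence was compared with structural RNA here.

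**Figure D3:**
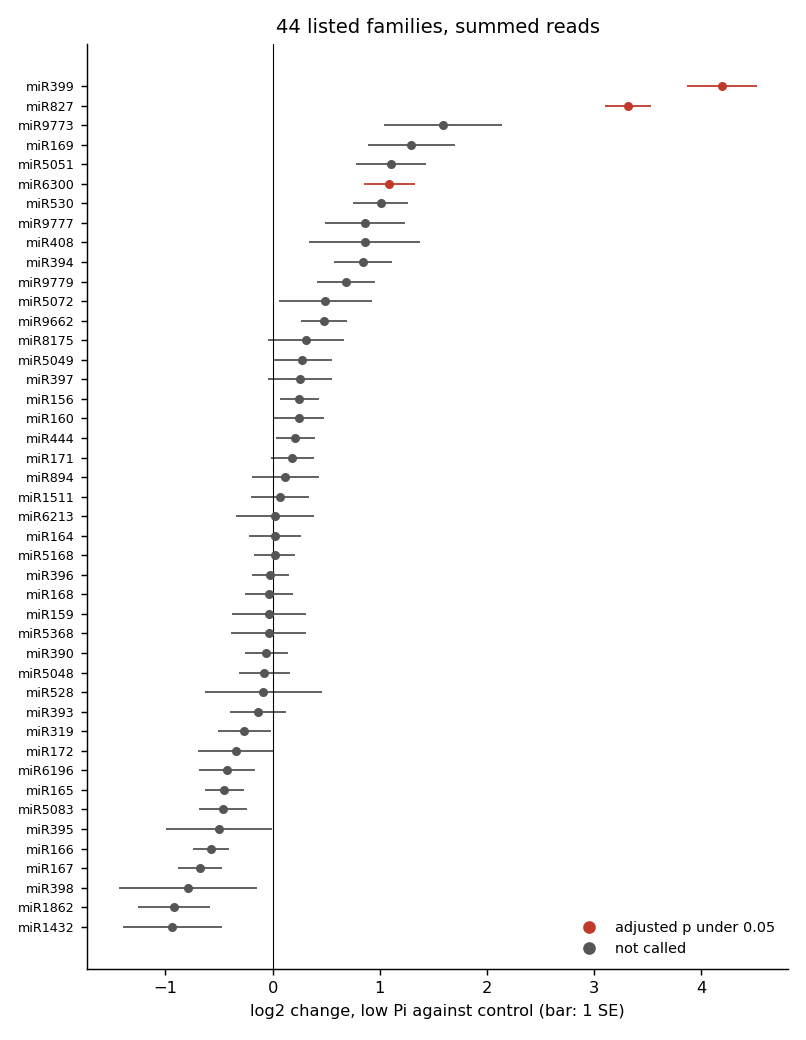
Log2 change (low Pi against control) of each of the 44 listed families that could be tested, on reads summed by family, with bars of 1 SE from 3 low-Pi and 3 control libraries; red marks an adjusted p under 0.05. miR399 at 4.19 and miR827 at 3.31 lie apart from the other families, which lie between -0.94 (miR1432) and 1.59 (miR9773).

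The families were also read by role. Of 8 families known for the Pi response, 6 were tested and 2 were called, miR399 and miR827, with a median log2 change of 0.77 against 0.04 over all 65 families. That median mixes families with opposite reported responses. The paper cites a fall of miR169, miR395 and miR398 in Pi-deprived Arabidopsis, and a rise of miR156 and miR827. Among the others of that list, miR169, which acts on NF-YA transcription factors, changed by 1.29 ± 0.41 (edgeR adjusted p = 0.102) and was called by DESeq2 (1.22, DESeq2 adjusted p = 0.0128). Its direction was opposite to the cited fall. miR156, which acts on SPL transcription factors, changed by 0.25, and miR395 and miR398, with mean levels under 2 RPM, by -0.50 and -0.79. miR2111 and miR778 had 0 reads in these libraries.

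None of the families of the other roles was called by edgeR's quasi-likelihood test with library totals as sizes, apart from miR6300, 1 of 9 in the list taken to resemble structural RNA (median 0.31). DESeq2 called miR165, miR166 and miR167 lower and miR394, miR530, miR5051 and miR9773 higher among them, beside miR169, which is also in the nitrogen and sulfur list. EdgeR's exact test called miR169, miR530 and miR5051 higher, and miRBase totals as library size gave calls on miR394, miR530 and miR5051. miR9773 was uneven, at 14.3, 16.6 and 56.2 RPM under low Pi (the last is replicate 6) against 8.42, 7.35 and 13.2 RPM. Its log2 change lay between 0.68 and 1.92 when any 1 library was left out. The copper list (miR397, miR398, miR408 and miR528, which act on laccases, superoxide dismutases and small copper proteins) had a median of 0.08. miR408 was uneven within the low-Pi group, at 59.7, 130 and 26.9 RPM against 37.5, 51.7 and 30.4 RPM, and the groups overlapped. The auxin list (miR160, miR167, miR390 and miR393, which act on auxin response factors, TAS3 and the TIR1/AFB receptors) had a median of -0.10. The list of leaf polarity and growth (miR165 and miR166 on HD-ZIP III genes, miR159 on GAMYB genes, miR319 on TCP genes, miR396 on GRF genes) had a median of -0.26. The medians were -0.05 for phase change (miR156, and miR172 on AP2-like genes), 0.18 for meristem and organ boundary (miR164 on NAC genes, miR171 on HAM genes, miR394 on an F-box gene), 0.04 for nitrogen and sulfur and 0.02 for 13 cereal families. At an unadjusted p under 0.05, 1 auxin family and 2 families of leaf polarity were lower, 1 meristem family and 1 of nitrogen and sulfur were higher, and of the cereal list 3 were higher and 1 lower, while over all 65 families 9 were higher (13.8%) and 4 lower (6.15%). Of the small RNA machinery list, miR168 alone could be tested (-0.03). miR162, which acts on DICER-LIKE1, had 3 reads and miR403, miR529, miR535 and miR857 had 0 reads in the shoot libraries.

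In some of these families the groups did not overlap although the adjusted p of edgeR's quasi-likelihood test missed 0.05. Over all 65 families the groups did not overlap in 10 upward (15.4%), miR399, miR827 and miR6300 among them, and in 6 downward (9.23%). miR166 stood at 13747, 15643 and 11210 RPM under low Pi (the last is replicate 6) and at 19901, 21003 and 19688 RPM in control, a log2 change of -0.58 ± 0.17 (edgeR adjusted p = 0.101). miR167 stood at 2369, 2919 and 2241 RPM against 4917, 3838 and 3272 RPM (-0.68 ± 0.21, edgeR adjusted p = 0.102). Every low-Pi pot thus held less of both than any control pot, and with TMM factors, which rescale each library on the bulk of its families, both were called (adjusted p = 0.0110 and 0.0192). With miRBase totals as library size no family was called lower. Without low-Pi replicate 6, miR166 was called (log2 change -0.46, edgeR adjusted p = 0.0358). In the other direction, miR530 stood at 14.2, 12.9 and 9.37 RPM against 6.19, 6.29 and 5.64 RPM (1.01 ± 0.26, edgeR adjusted p = 0.0665), and without low-Pi replicate 6 it was called (1.16, edgeR adjusted p = 0.00812). miR5051, a cereal family, stood at 492, 329 and 501 RPM against 264, 231 and 118 RPM (1.11 ± 0.33, edgeR adjusted p = 0.101). EdgeR's exact test called miR530 (adjusted p = 0.0115) and miR5051 (0.0325) higher with no library left out. Both were also called with miRBase totals as library size (edgeR adjusted p = 0.0346 for each). A minimum count of 50 gave a call on miR530 (0.0206) but not on miR5051.

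The most-read sequences of the 12 largest families changed by between -0.82 and 1.13 on the log2 scale. The guide of miR168, tCGCTTGGtgcagatcgggac, changed by -0.08 on the log2 scale, the most-read miR5168 sequence, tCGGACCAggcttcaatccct, by 0.04, and the most-read miR156 sequence, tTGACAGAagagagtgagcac, by 0.20, all with overlapping groups. The most-read miR159 sequence, tTTGGATTgaagggagctctg, stood at 1905, 1604 and 4610.0 RPM against 3079, 2660.2 and 2361 RPM. Low-Pi replicate 6 was above every control pot and replicates 4 and 5 below all of them, so the log2 change of 0.00 ± 0.35 became -0.62 without replicate 6, which was called lower (edgeR adjusted p = 0.0344). The most-read miR166 sequence, tTCGGACCaggcttcattccc, stood at 12790.5, 14667 and 10413 RPM against 18772, 19943 and 18659 RPM (-0.6 ± 0.20, edgeR adjusted p = 0.0831), and without low-Pi replicate 6 it was called lower (-0.48, 0.0266). The most-read miR167 sequence, tGAAGCTGccagcatgatctgc, stood at 1192, 1593 and 1286 RPM against 3002, 2496 and 1713 RPM (-0.82 ± 0.25, edgeR adjusted p = 0.0556). Its groups did not overlap, and it was called lower with TMM factors (adjusted p = 0.0311), by DESeq2 (0.0166) and without control replicate 18 (-1.02, edgeR adjusted p = 0.0319). The changes were 0.51 in miR9662, 0.40 in miR444, -0.27 in miR319, -0.31 in miR396 and -0.08 in miR5048, and of these the miR9662 sequence was called higher without low-Pi replicate 6 (0.71, edgeR adjusted p = 0.0238). The most-read miR5051 sequence, tTTGGCACcttgaaactggga, was the only one of the most-read sequences of the 12 largest families that was called, at 454, 302 and 467 RPM against 242, 210 and 109 RPM (1.13 ± 0.31, edgeR adjusted p = 0.0378). That call was lost without low-Pi replicate 4 (0.108), low-Pi replicate 6 (0.0613) and each of control replicates 16 (0.0573), 17 (0.0887) and 18 (0.134).

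Of the 6 sequences called lower, 4 belong to the strand opposite the guide as it is known in Arabidopsis, in miR166, miR167 and miR159. They are shown because the most-read sequences of these families were not called with all 6 libraries, although each was in at least 1 of the fits above that left out a library.
miR166d 5′: gGAATGTTgtctggctcgggg
miR166b 5′: gGAATGTTgtctggctcggggt
miR167b 3′: aGGTCATGctggagtttcatc
miR159b: gAGCTCCTatcattccaatga
The miR166d strand stood at 32.2, 32.5 and 32.0 RPM in the low-Pi pots and at 75.5, 88.3 and 65.5 RPM in control (-1.25 ± 0.24, edgeR adjusted p = 0.00448). Its low-Pi values lay within 1 RPM of one another, replicate 6 included, and the call held whichever library was left out. The miR166b form, 1 base longer at the 3′ end, changed by -1.81 ± 0.41 at levels under 5 RPM (edgeR adjusted p = 0.0147, lost at 0.0609 without low-Pi replicate 4, 0.0506 without control replicate 16 and 0.0540 without control replicate 17). The miR167b strand stood at 97.4, 89.3 and 109 RPM against 240.3, 167 and 182 RPM (-1.0 ± 0.24, edgeR adjusted p = 0.0199, lost at 0.0731, 0.0780 and 0.124 without low-Pi replicates 4 or 5 or control replicate 16). The groups did not overlap for any of these strands.

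The miR159b strand stood at 52.4, 42.9 and 69.9 RPM against 142, 92.4 and 92.3 RPM (-0.98 ± 0.28, edgeR adjusted p = 0.0432), lower in each low-Pi pot, including replicate 6, in which the most-read miR159 sequence was highest. Its call was lost in 5 fits: adjusted p was 0.130 and 0.158 with low-Pi replicate 4 or 5 left out, and 0.223, 0.0739 and 0.0666 with control replicate 16, 17 or 18 left out. The remaining lower sequences were a miR156f form that starts 1 base later than the most-read miR156 sequence, tGACAGAAgagagtgagcacc (-1.42 ± 0.35, edgeR adjusted p = 0.0206), and a precursor match of miR5083, cCAATGGAtccttctgagcct (-1.31 ± 0.35, edgeR adjusted p = 0.0321). Each was below 6 RPM in all libraries and was lost in 4 of the 6 fits that left out a library, namely without low-Pi replicate 4 (0.0876 for miR156f and 0.0644 for miR5083), low-Pi replicate 5 (0.0718 and 0.0832), control replicate 16 (0.0937 and 0.185), and either control replicate 17 (0.0563, miR156f) or control replicate 18 (0.0545, miR5083). Groups did not overlap downward in 21 of 52 tested miR166 sequences and 12 of 32 of miR167, against 11.4% of all sequences, and sequences of a family are not independent of one another.

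miR169 was higher on both arms but unevenly so. Summed, it stood at 253, 530.3 and 224 RPM under low Pi and at 116, 198 and 95.9 RPM in control, with no overlap and with low-Pi replicate 5 and control replicate 17 the highest of their groups. Of its 27 tested sequences 26 had a positive log2 change and 7 were called higher. Over all 484 tested sequences the median log2 change was 0.07 and 45 (9.3%) were called higher. Sequences of a family are not independent of one another. The family sum was not called by edgeR's quasi-likelihood test (adjusted p = 0.102), while edgeR's exact test called it (adjusted p = 0.0340). Those with the largest changes come from the 3p strand and start with 2 G.
miR169c 3′, 19 nt: gGCAGTCTccttggctacc
miR169i 3′, 19 nt: gGCAGTCTccttggctagc
miR169c 3′, 20 nt: gGCGGTCAccttggctagcc
miR169d 5′, 22 nt: cAGCCAAGgatgacttgccggc
The first stood at 3.55, 19.6 and 9.09 RPM against 0.522, 1.31 and 0.188 RPM (3.95 ± 0.68, edgeR adjusted p = 0.00239), and the call held whichever library was left out. So did that of the miR169i form, which was chosen after its values were seen, at 5.19, 21.4 and 11.7 RPM against 1.27, 3.35 and 1.41 RPM (2.66 ± 0.53, edgeR adjusted p = 0.00601). In both, low-Pi replicate 5 was the highest and replicate 4 the lowest of the low-Pi pots. The 20-nt miR169c form stood at 3.41, 19.2 and 1.33 RPM against 0.373, 1.55 and 0.282 RPM, so that replicate 6 lay below control replicate 17. Its change of 3.41 ± 0.91 (edgeR adjusted p = 0.0321) was lost without low-Pi replicate 5 (0.145), control replicate 16 (0.160) or control replicate 18 (0.12). The guide-side miR169d sequence, chosen likewise after its values were seen, stood at 73.3, 86.0 and 62.8 RPM against 32.0, 45.3 and 20.2 RPM (1.19 ± 0.31, edgeR adjusted p = 0.0292, lost at 0.0644, 0.0780, 0.124 and 0.113 without low-Pi replicates 4 or 5 or control replicates 16 or 18).

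In miR156 the arms had unequal values. The guide side changed by 0.14 ± 0.17, while the 3p side stood at 213, 226 and 96.2 RPM against 97.9, 73.4 and 78.3 RPM (1.10 ± 0.33, edgeR adjusted p = 0.0509), with low-Pi replicate 6 inside the control range. Without replicate 6 it was called (1.40, edgeR adjusted p = 0.00319). Its most-read 3p forms, which differ by 1 base at the 5′ end and so carry different seeds, were both called, and both were chosen after their values were seen.
miR156c 3′, 23 nt: tGCTCACTgctctatctgtcacc
miR156c 3′, 22 nt: gCTCACTGctctatctgtcacc
The 23-nt form stood at 68.4, 68.0 and 27.1 RPM against 17.6, 15.1 and 15.9 RPM (1.75 ± 0.35, edgeR adjusted p = 0.00589, held whichever library was left out). The 22-nt form stood at 85.4, 84.5 and 34.0 RPM against 26.4, 22.7 and 19.4 RPM (1.57 ± 0.35, edgeR adjusted p = 0.012, lost at 0.0545 without control replicate 18). For both, low-Pi replicate 6 lay above all control pots but at less than the level of replicates 4 and 5.

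To compare the arms, reads of mature-type sequences were summed by family and arm, a grouping chosen after calls on both arms had been seen. Of 64 arms tested 11 (17.2%) were called, 9 higher (14.1%) and 2 lower (3.12%), and the calls on the 4 arms of miR399 and miR827 held whichever library was left out. With TMM factors 6 were higher and 4 lower. In miR399 the 3p arm changed by 3.92 ± 0.31 and the 5p arm by 5.87 ± 0.41, and in miR827 by 3.05 ± 0.22 and 3.71 ± 0.36. In miR169 the 3p arm changed by 2.09 ± 0.60 (edgeR adjusted p = 0.0464) and the 5p arm by 1.15 ± 0.30 (0.0415). The calls on both miR169 arms were lost without low-Pi replicate 4 (0.0696 for each), low-Pi replicate 5 (0.0754 for each), control replicate 16 (0.129 and 0.116) or control replicate 18 (0.145 and 0.0951). The arms called lower were the 3p arm of miR167 (-0.93 ± 0.21, edgeR adjusted p = 0.0243, lost at 0.0766, 0.0754 and 0.110 without low-Pi replicates 4 or 5 or control replicate 16) and the 5p arm of miR166 (-0.68 ± 0.20, 0.0464), which was lost in each of the 6 fits that left out a library (0.0503 to 0.215). Without low-Pi replicate 6, the 3p arm of miR166 (-0.46, edgeR adjusted p = 0.0204) and the 5p arm of miR159 as the match type gives it (-0.58, 0.0468) were called lower. The arms miR6201 5p (0.99, 0.0468) and miR9662 3p (0.66, 0.0438) were called higher in that fit. The call on the 3p arm of miR5051, higher with all 6 libraries (1.11, 0.0464), was lost in it (1.01, 0.0876). The miR159 family sum was not called in any fit that left out a library (smallest edgeR adjusted p = 0.0589). Among 17 families with both arms tested, the arm with fewer reads had the more positive change in 11, and in 9 of 15 without miR399 and miR827. In miR169 the arms were nearly level over the 6 libraries, with means of 89.5 RPM for 3p and 89.2 RPM for 5p. In control its 5p arm held more (55.5 against 34.1 RPM), so its place in this count turns on the low-Pi libraries. The deposited match type puts strands of both sides of miR159 and of miR172 on the 5′ side, so these arms are not separate in this sum.

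**Figure D4:**
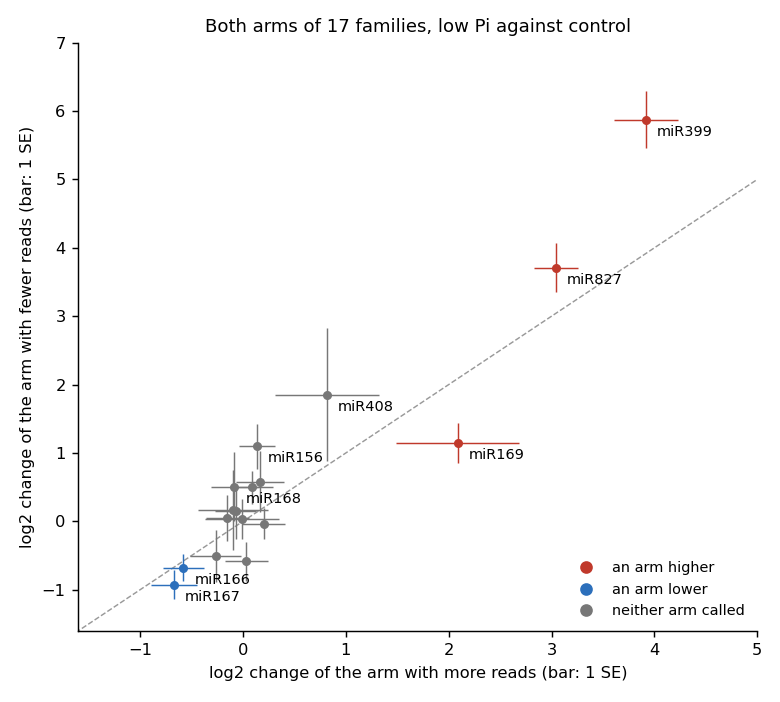
Log2 change (low Pi against control) of the arm with more reads (x axis) and of the arm with fewer reads (y axis) in the 17 families with both arms tested, with bars of 1 SE and a dashed line of equal change. miR399 lies above the line (3.92 and 5.87), miR169, whose arms had nearly equal reads, below it (2.09 and 1.15), and miR166 and miR167 lie below 0 on both axes.

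Summing mature-type sequences by seed gave 173 groups, of which 23 (13.3%) were called, 21 higher (12.1%) and 2 lower (1.16%), and 12 calls held whichever library was left out. With TMM factors the split was 17 higher and 6 lower, and 15 groups were called without control replicate 17. Of the 21, miR399 gave 6, miR827 gave 5, miR156 gave 3, miR169 and miR396 gave 2 each, and miR6300, miR530 and miR5051 gave 1 each. The call on the miR5051 seed, TTGGCAC, was lost without low-Pi replicate 6 (1.02, edgeR adjusted p = 0.118). The miR399 seed GCCAAAG, which holds all 4 guides in 19 sequences, stood at 211, 275 and 302 RPM under low Pi against 18, 22.3 and 11.3 RPM (3.93 ± 0.33, edgeR adjusted p = 7.32e-06). The seed of the miR827 guide, TAGATGA, stood at 260.4, 249 and 196 RPM against 29.5, 27.3 and 27.6 RPM (3.06 ± 0.25, edgeR adjusted p = 7.32e-06). The 2 lower seeds were GAATGTT of miR166 (-1.14 ± 0.25, edgeR adjusted p = 0.0100, lost at 0.0588 without control replicate 17) and GGTCATG of miR167 (-0.99 ± 0.24, 0.0190, lost at 0.0715, 0.0713 and 0.0998 without low-Pi replicates 4 or 5 or control replicate 16). Both are the seeds of strands opposite the guide. Without low-Pi replicate 6, the seed TCGGACC of the most-read miR166 sequence (-0.48, edgeR adjusted p = 0.0337) and the seed GACAGAA of miR156 (-0.80, 0.0236) were also called lower.

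Which sequence of a family was read was also compared, as a share of the family's reads, which does not depend on library scaling. In 36 families with at least 100 reads in each library, groups did not overlap for the most-read sequence in 8 (22.2%), for 21-nt reads in 7 (19.4%), and for 39 of 134 seed groups (29.1%). Under low Pi the share was higher in 2 and lower in 6 of the first, 3 and 4 of the second, and 18 and 21 of the third. No share passed adjustment: the smallest Benjamini-Hochberg values were 0.45, 0.514 and 0.344, since 3 against 3 libraries cannot give an exact permutation p below 0.1. Those named next were chosen after their values were seen, and all had that p.

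In miR172 the strands of the duplex took unlike shares in the groups.
miR172f: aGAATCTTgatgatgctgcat
miR172b: gCAGCACCaccaagattcaca
The first is the form known as the guide in Arabidopsis. Its seed held 45.9%, 52.9% and 44.6% of the family under low Pi and 19.9%, 24.3% and 29.3% in control, while the seed of the second held 46.4%, 37.8% and 50.3% against 76.5%, 70.1% and 65.0%. Levels were low, with the miR172f sequence at 6.01, 4.93 and 6.72 RPM against 4.77, 2.37 and 4.23 RPM, and neither sequence was called with all 6 libraries (log2 changes 0.63 ± 0.33 and -1.05 ± 0.40, edgeR adjusted p = 0.304 and 0.124). Without low-Pi replicate 6 the second was called lower (-1.39, edgeR adjusted p = 0.0483).

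In miR1432 the form starting 1 base earlier, tTCAGGAGagatgacaccgac, took a larger share under low Pi than in control, beside tCAGGAGAgatgacaccgac. Its seed held 55.6%, 57.5% and 53.5% against 37.9%, 42.0% and 44.2%. The family as a whole overlapped between groups, at 70.8, 41.2 and 36.4 RPM against 161, 74.8 and 47.8 RPM. In miR444, which in rice acts on MADS-box genes, the most-read sequence was a precursor match, cGGCAAGCtagagacagcaac, at 1739, 2245 and 1872 RPM against 1544, 1620 and 1281 RPM (0.40 ± 0.21, edgeR adjusted p = 0.306), and it held 65.6%, 63.9% and 62.2% of the family against 53.5%, 59.4% and 55.4%, without overlap. In miR166 the most-read sequence held 93.2% ± 0.46 under low Pi and 94.7% ± 0.32 in control. In miR169, 21-nt reads held 25.8% ± 4.72 against 38.4% ± 0.68, and in miR156 the seed of the 22-nt 3p form held 7.30%, 7.35% and 3.76% against 2.87%, 2.88% and 2.21%.

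**Figure D5:**
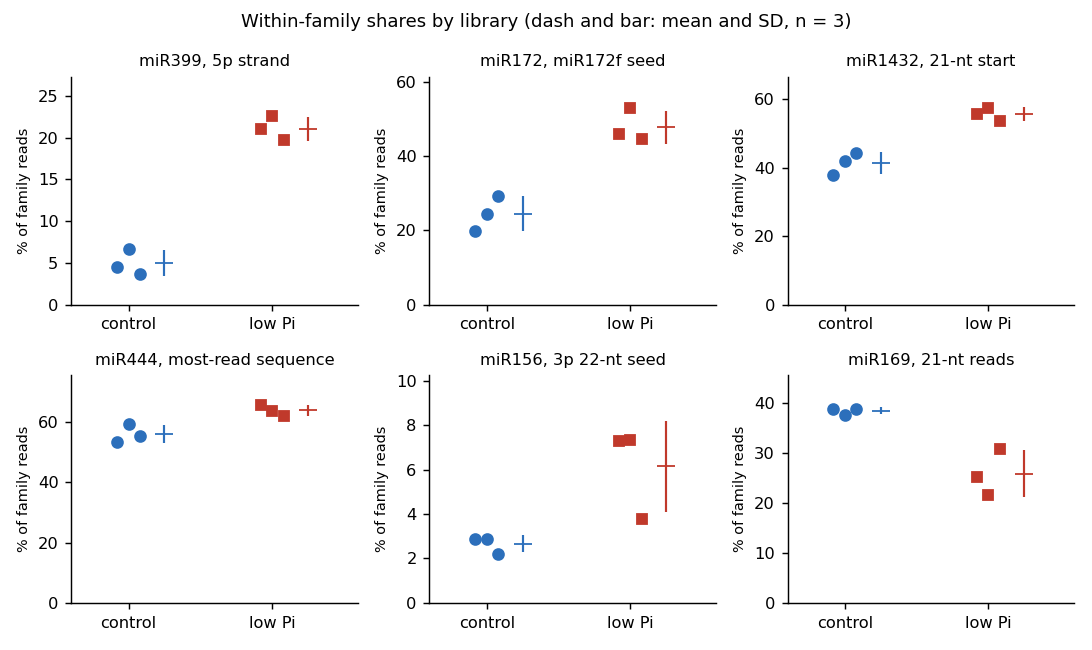
Percent of a family's reads held by the named strand, seed, sequence or length class in each shoot library (circles for control, squares for low Pi), with the mean and SD of 3 libraries beside them. The panels were chosen among shares without overlap after their values were seen, so their directions do not stand for all such shares. In all 6 panels the groups do not overlap: the miR399 5p share lies between 19.7% and 22.6% under low Pi and between 3.70% and 6.71% in control, and only the miR169 panel has control above low Pi.

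Over all miRBase-matched reads, precursor matches took 8.37%, 9.07% and 7.80% under low Pi and 6.76%, 6.68% and 6.66% in control (exact permutation p = 0.1, as for each share here without overlap). Mature forms extended at an end took 26.1% ± 5.37 against 33.9% ± 1.84, with low-Pi replicate 6 the lowest at 19.9%. Most of this class was the most-read miR166 sequence, with 475807 low-Pi and 694642 control reads of the 1274187 in the class. The most-read miR444 sequence, a precursor match that starts with C, held 72563 low-Pi and 54177 control reads. Over the 6 libraries, precursor matches had 317769 reads and reads starting with C numbered 420067. Reads starting with T, the base that AGO1 favours, took 83.2% ± 1.36 against 86.4% ± 0.70, and reads starting with C 11.4% ± 1.6 against 8.56% ± 0.74. Reads of 18 nt took 3.13% ± 0.18 under low Pi against 2.76% ± 0.16 in control, reads of 19 nt 2.26% ± 0.11 against 1.84% ± 0.03, and reads of 20 nt 3.62% ± 0.19 against 2.99% ± 0.12. The shares of 22 nt (10.1% ± 0.17 against 11.2% ± 1.0) and 25 nt (0.0652% ± 0.030 against 0.0316% ± 0.0059) did not overlap either. Reads of 21 nt took 80.2% ± 0.75 against 80.7% ± 1.09, which overlapped (exact permutation p = 0.7). Low-Pi pots thus held larger shares of reads of 18 to 20 nt and 25 nt and of precursor matches, and smaller shares of 22 nt. The direction for precursor matches turned when distinct sequences with at least 3 reads were counted in place of reads (a difference of -0.546 percentage points).

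The low-Pi effect in shoot was set against that in root by an interaction of organ and condition. Of 81 families 13 (16.0%) were called and all were more positive in shoot, but the median over the 81 was itself 0.67. miR399 changed by 4.19 in shoot and 1.81 in root, a difference of 2.38 ± 0.44 (edgeR adjusted p = 0.000818), and miR827 by 3.31 and 1.68, a difference of 1.63 ± 0.36 (0.00385). With TMM factors the median became -0.37 and 1 family was called more positive and 3 more negative in shoot, with miR5051 alone kept of the 13 (1.92, adjusted p = 0.00669). With miRBase totals as library size the split was 2 and 2, with miR399 (1.94, 0.00997) and miR5051 (2.47, 0.000755) kept.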

How the data were processed

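Libraries were made with the TruSeq Small RNA kit from gel-purified small RNA and read on a HiSeq instrument. The authors trimmed reads in CLC Genomics Workbench (version not given in the sources used here), kept 18 to 25 nt, collapsed identical reads and deposited, per sequence and library, the count and its RPM, the reads per 1000000 kept reads. Sequences matched miRBase perfectly on the sense strand, in an entry of any species, so names are not barley loci. No genome was used and no coordinates are given. The authors' p-values and fold changes were not used, nor were 48 deposited columns that repeat counts or belong to other tables.

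Library totals were recovered as count divided by RPM and served as library sizes. Counts were tested with edgeR 4.0.16 in R 4.3.3 (quasi-likelihood, filterByExpr at a minimum count of 10, Benjamini-Hochberg at 0.05 over all features tested), as single sequences and summed by family, seed or arm. A test on data simulated with the same dispersion (spread between libraries) for all sequences called 98.5% of sequences changed 4-fold, 47.9% of those changed 2-fold and 0.322% of unchanged ones. Shares were compared by two-sided exact permutation tests. Errors after ± are SE for log2 changes and SD otherwise. PCR reads are not independent molecules, so intervals and limits cover counting error only.

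Named were the members of the role lists, the largest increases and decreases, and the most-read sequence of the 12 largest families. Increases and decreases were called sequences with a mean level of 1 RPM or more, at most 15 each way. Forms of miR399 and miR827 of 18 or 19 nt among those increases are not printed. Sequences added afterwards are said to be so. Members, lists and tests were chosen with earlier results of these data known. Alternatives were TMM factors, DESeq2 1.42.0, miRBase totals as library size, no filter, a minimum count of 50, an exact test, Bonferroni adjustment, each library left out in turn, other denominators for shares, and a replicate block.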

Additional observations from a re-analysis of the deposited data

Results flagged for a closer look

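The low-Pi effect differed between shoot and root in 13 families by the interaction test (edgeR, adjusted p under 0.05), each more positive in shoot. The differences in log2 change (shoot minus root) were 3.22 for miR6213, 2.90 for miR5051, 2.42 for miR9773, 2.38 for miR399, 1.98 for miR394, 1.81 for miR169, 1.63 for miR827, 1.44 for miR397, 1.41 for miR319, 1.36 for miR5049, 1.30 for miR5048, 1.13 for miR396 and 1.13 for miR9662. For miR5051 the shoot libraries moved up (1.11) and the root libraries down (-1.79). A positive difference is not always a rise in shoot. miR319, miR396 and miR5048 changed by -0.26, -0.02 and -0.08 in shoot and by -1.68, -1.15 and -1.38 in root. The other families named had positive shoot changes. miR6213 was read at 0, 0.0568 and 0.0663 RPM in the low-Pi root libraries, so its difference rests on few reads. The median difference over all 81 families was 0.67, so most families moved in this sense. Of the 13 calls 1 was kept with TMM factors, 2 with miRBase totals as library size, and 8 without control replicate 16 or without control replicate 18. Without low-Pi replicate 6, 10 were kept, and those on miR5049, miR6213 and miR9773 were lost.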

How the results depend on the processing

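In the shoot family test, miR399 and miR827 were called under every setting run. In the interaction, with TMM factors neither was called (adjusted p = 0.0823 and 0.328), nor was miR827 with miRBase totals (0.0720). Sequences called were 51, and 20 at a minimum count of 50 and 19 with Bonferroni (29 to 74 without 1 library). Families called were 3, and 11 with DESeq2, 6 with miRBase totals, 7 with no filter and 6 with the exact test (2 to 6 without 1 library). Seed groups called were 23, and 9 with Bonferroni (15 to 27 without 1 library). Interaction calls were 13, and 4 each with TMM factors and with miRBase totals (8 to 13 without 1 library). With miRBase totals the median over families moved by 0.18 (log2), and with TMM factors by -0.10. Without low-Pi replicate 6, 6 families were called. The replicate block gave 10 interaction calls, and same-numbered root and shoot libraries share only a number (correlations of deviations -0.35 to 0.04).

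These log2 changes reversed. With TMM factors: miR1511 -0.041, miR164 -0.081, miR5168 -0.095, miR6213 -0.079, miR894 -0.0071, and the miR159 guide tTTGGATTgaagggagctctg -0.0043. With DESeq2: miR1511 -0.00071, miR164 -0.037, miR5168 -0.046, miR6213 -0.031. With miRBase totals: miR159 0.11, miR168 0.13, miR390 0.10, miR393 0.051, miR396 0.16, miR5048 0.060, miR528 0.083, miR5368 0.16, and the guides tATATTTGcaggttttaggtct of miR5048 0.061 and tCGCTTGGtgcagatcgggac of miR168 0.082. Without 1 library: miR1511 -0.15 to 0.24, miR159 -0.57 to 0.21, miR164 -0.095 to 0.13, miR168 -0.30 to 0.089, miR172 -0.56 to 0.032, miR393 -0.31 to 0.092, miR395 -0.84 to 0.21, miR396 -0.091 to 0.098, miR397 -0.030 to 0.46, miR5048 -0.35 to 0.045, miR5168 -0.11 to 0.17, miR528 -1.10 to 0.24, miR5368 -0.23 to 0.26, miR6213 -0.32 to 0.30, miR894 -0.086 to 0.41, tATATTTGcaggttttaggtct -0.37 to 0.060, tCGCTTGGtgcagatcgggac -0.28 to 0.011, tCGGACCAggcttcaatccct -0.097 to 0.19 and tTTGGATTgaagggagctctg -0.62 to 0.27.

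As a percentage of all library reads, precursor matches differed by 0.0469 and reads starting with T by -0.755 (low Pi minus control, percentage points). Over distinct sequences with at least 3 reads the differences were -0.546 for precursor matches, 0.0280 for extended mature forms, -0.0534 for 25 nt and -0.725 for T. The cause of these changes was not tested. Simulated 2-fold changes were called in 47.9% of sequences and 28.6% of families (2 of 7), so an uncalled 2-fold change is not shown to be absent. The simulation gave all features the same dispersion (spread between libraries) and held no library that stood apart, so these percentages need not hold for the real libraries.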
